A study of Monodelphis domestica with 5 samples.

Results

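The regions described here are wide domains of H3K9me3, a mark of repression (MOR), without a called peak of the other histone modifications profiled in the same cells. They are the H3K9me3 peaks on chromosomes 1 to 8 with a MACS score of at least 50 and a width of at least 6000 bases that shared no base with any deposited peak of H3K4me3, H3K9Ac or H3K27me3. Of the 81865 H3K9me3 peaks on these chromosomes with that score, 406 (0.496%) met the rule, and the deposited list holds 159734 H3K9me3 peaks in all. The domains were thus chosen by their width, their score and the absence of peaks of the other marks, and those values are given as a description. Free of other marks means here without such a peak, and signal below the peak calls was not examined. The paper describes the distribution of H3K27me3 as diffuse, so lack of a peak need not mean lack of that mark.

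Primary fibroblasts were grown from the ear of 1 adult male opossum, *Monodelphis domestica*, born to an LL1 mother (A0359) and an LL2 father (A0342), and the labels give 4 to 6 passages. Native ChIP-seq was carried out with antibodies against H3K4me3 and H3K9Ac, which are marks of activation (MOAs), and against H3K9me3 and H3K27me3, which are MORs, with 1 library per antibody and 1 of input chromatin. All libraries come from the same animal. The study gives them different numbers of aligned reads, which are not used here. The protocol in the labels says that chromatin was pooled for sisters, whereas the animal profiled here was a male.

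H3K9me3 is written by histone methyltransferases such as the SUV39H enzymes and SETDB1 and is bound by HP1 proteins, which compact the chromatin. In mammals it is known for pericentromeric heterochromatin, for silenced transposable elements and for clusters of zinc finger genes, where it can spread over long stretches. H3K4me3 and H3K9Ac mark active or poised promoters, and H3K27me3 is the mark of the Polycomb system, which silences developmental genes. Genes and sequence of MonDom5, the assembly of the peak lists, were not used here. The domains are therefore given by position only, and the fibroblast label was not checked against marker genes.

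With 1 library per antibody no value has a replicate error, and no test was made between wide domains and other peaks. Intervals in parentheses are 95% intervals, exact binomial for shares, exact Poisson for numbers per Mb and from order statistics for medians. They cover counting error only and treat peaks as independent, although neighbouring peaks share a region. The lists hold no read counts, so the number of reads behind each peak is unknown. The score of a peak is its MACS p-value on the log10 scale, multiplied by minus 10, and the threshold of 50 stands for a p of 1e-05. The deposited H3K9me3 list reaches down to a score of 30 and was filtered at 50 here. Its peaks and their widths therefore need not be those that the paper called at a p of 1e-05.

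Widths of the domains ran from 6003 to 80161 bases. The median width was 7016.5 bases, 198 of the 406 were under 7000 bases wide, 137 were from 7000 to 9999, 56 from 10000 to 19999, and 15 were 20000 bases or wider. Together they covered 3531 kb. Just outside the threshold, 22 peaks free of other marks were from 5900 to 5999 bases wide with a median score of 272, and just inside it 35 were from 6000 to 6099 with a median score of 274. The threshold on the score removed few domains, since 6 further peaks met the other criteria with a score below 50. Among the narrow H3K9me3 peaks that were free of other marks, which are those under 6000 bases and number 73965, the median width was 1901 bases.

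Scores of the wide domains ran from 50.1 to 1811 with a median of 332, against a median of 74.5 in narrow peaks free of other marks. Only 13 of the wide domains had a score under 100, whereas 73.0% of the narrow peaks did. Over all 74371 peaks free of other marks, which come from the same library, width and score rose together (Spearman's rho of 0.69). Wide domains were compared with all narrow peaks free of other marks. For distances to MOA and H3K27me3 peaks and for H3K9me3 in the flanks, they were also compared with narrow peaks of like score. Clustering, numbers of neighbouring peaks, counts per chromosome and shares near chromosome ends were not compared by score. Within the 406 wide domains rho was 0.18.

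**Figure D1:**
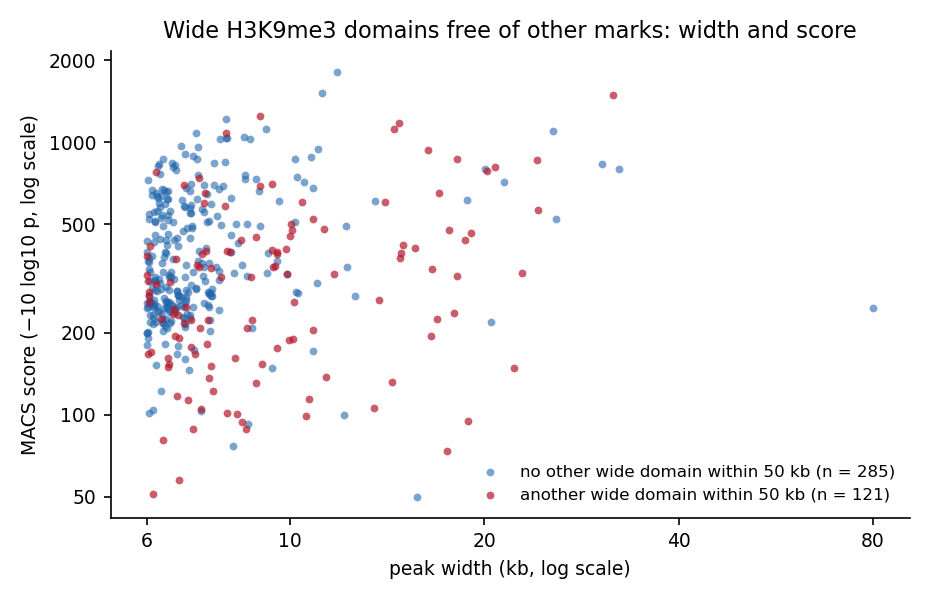
Width in kb (x axis, log scale) and MACS score (y axis, log scale) of each of the 406 wide H3K9me3 domains free of other marks, in red where another such domain lay within 50 kb (121 domains) and in blue where none did (285 domains). Both kinds spread over most of the score range, and most domains wider than 10 kb are red, with the widest, 80161 bases, lying alone.

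The 10 widest domains were on chromosomes 2, 3, 4, 7 and 8, with 4 of them on chromosome 3 and 3 on chromosome 8. The widest lay on chromosome 8 from 35601725 to 35681885 and was 80161 bases wide, with a modest score of 247. It began or ended 23 bases from an H3K4me3 peak and 1.428 kb from an H3K27me3 peak, so its place among domains free of other marks rests on a short gap. The next was 32365 bases wide, on chromosome 7 from 229724507 to 229756871, with a score of 796 and 148.0 kb to the nearest H3K4me3 peak. A domain of 31694 bases on chromosome 2, from 259209536 to 259241229, had a score of 1493, which placed it among the 3 highest in width and in score. It lay 206.0 kb from the nearest H3K4me3 peak and 42 bases (0.042 kb) from another wide domain.

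The widest domain of chromosome 3 was 30487 bases, from 462220343 to 462250829, with a score of 834. The next of chromosome 8 in width were 25797 bases (79689842 to 79715638, score 523) and 25523 bases (209724066 to 209749588, score 1103), and lay 585.9 kb and 313.7 kb from the nearest peak of either MOA. The widest domain of chromosome 4, 24175 bases from 49532382 to 49556556 (score 860), was closer to one, at 15.1 kb. On chromosome 1 the widest was 20228 bases, from 557481478 to 557501705 (score 785), and on chromosome 5 it was 17034 bases, from 297036221 to 297053254 (score 650). On chromosome 6 the widest was 10697 bases, from 224225 to 234921, close to the start of the assembled chromosome, with a score of 115. Of these widest domains of each chromosome, that of chromosome 8 alone lay within 10 kb of an MOA peak.

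Of the 5 domains with the highest score, 4 lay within 10 kb of an MOA peak. The domain with the highest score, 1811, was 11832 bases wide, on chromosome 1 from 424112241 to 424124072, and 3772 bases from the nearest MOA peak. A second on chromosome 1, from 697896789 to 697908014, had a score of 1513 and was 5405 bases from one. Domains on chromosome 3 from 500332904 to 500341892 (score 1250) and on chromosome 4 from 403078932 to 403086898 (score 1218) were 2073 and 4616 bases from one. The exception was the domain of chromosome 2 described above, at 206.0 kb.

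Wide H3K9me3 peaks were less often free of other marks than narrow ones. Of the 772 H3K9me3 peaks of at least 6000 bases (0.943% of those with the score), 52.6% were free, against 91.2% of narrow peaks and 90.8% of all. The remaining 366 shared a base with H3K27me3 in 252 cases, with H3K4me3 in 162 and with H3K9Ac in 22. A wide peak has more bases in which to meet another mark, so the share of bases was also taken. H3K27me3 peaks covered 14.6% of the bases of wide peaks and 3.62% of those of narrow peaks, H3K4me3 peaks 7.61% and 1.78%, and H3K9Ac peaks 0.537% and 0.460%. The 366 wide peaks that shared a base had a median score of 709.5, above the 332 of the domains that were free.

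No wide peak was found on the X chromosome, whose 222 H3K9me3 peaks with a score of at least 50 were at most 5741 bases wide. Here 0 of 222 allows a share of up to about 1.35%, by an approximate upper limit rather than the exact binomial interval. On chromosomes 1 to 8 the share of wide peaks was 0.943% (0.878 to 1.01%).

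The domains were spread unevenly over the autosomes, with the most on chromosome 3. The ratio of the densest to the sparsest chromosome was 3.68, and was smaller with H3K9me3 peaks joined over gaps of up to 1000 bases (1.68) or with a width threshold of 5000 bases (2.18). Chromosome 3 makes up 15.4% of the length of chromosomes 1 to 8, taken as the largest peak end in any list, but held 113 of the 406 domains (27.8%), or 0.214 per Mb (0.176 to 0.257). The other chromosomes had from 0.0582 per Mb on chromosome 6 (17 domains, 0.0339 to 0.0932) to 0.129 on chromosome 4 (56 domains, 0.0972 to 0.167). The interval of chromosome 3 thus lay above those of all 7 others, which overlapped each other except for those of chromosomes 4 and 6. These intervals treat each domain as independent, although 52 of the 113 on chromosome 3 had another within 50 kb. Chromosome 7, with 17 domains (0.0652 per Mb), was close to chromosome 6.

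This distribution did not follow that of narrow H3K9me3 peaks. Narrow peaks free of other marks were most dense on chromosome 5, at 26.6 per Mb, and chromosome 3 had 23.5 per Mb in a range of 19.0 to 26.6. Per 1000 peaks free of other marks, wide or narrow, chromosome 3 had 9.02 wide domains (7.44 to 10.8), against 2.63 (1.53 to 4.20) on chromosome 7 and 3.05 (1.78 to 4.87) on chromosome 6. Neighbouring domains were then joined where the gap was at most 50 kb, so that each cluster or lone domain was counted once. Chromosome 3 still had the most, at 74 clusters or 0.140 per Mb, followed by 0.115 on chromosome 4, with the fewest, 0.0548, on chromosome 6. The ratio of the densest to the sparsest chromosome was then 2.56. No interval was computed for the cluster counts, so whether chromosome 3 stands apart from chromosome 4 in them was not tested.

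**Figure D2:**
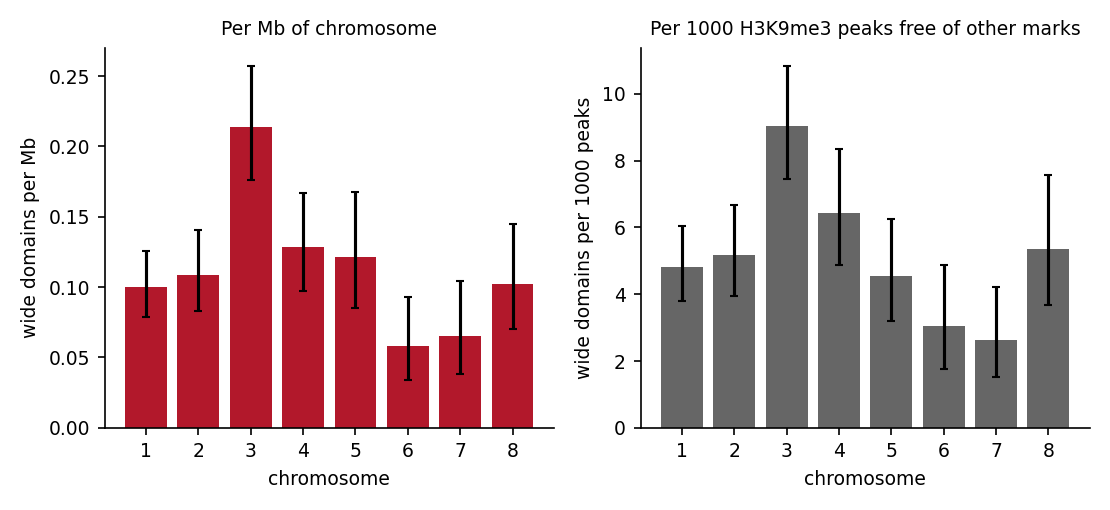
Wide H3K9me3 domains free of other marks per Mb of each chromosome (left, bars with exact 95% Poisson intervals) and per 1000 H3K9me3 peaks free of other marks (right, bars with exact 95% binomial intervals). Chromosome 3 is highest in both panels, at 0.214 per Mb and 9.02 per 1000 peaks, and chromosomes 6 and 7 are lowest.

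Wide domains occurred in clusters. Another wide domain lay within 50 kb of 121 of the 406 (29.8%, 25.4 to 34.5%), within 10 kb of 70 (17.2%) and within 1 Mb of 239 (58.9%). The median distance to the next domain was 302 kb (205 to 578 kb), and the largest was 67669 kb. Of the 3419 bins of 1 Mb, 92.5% held no wide domain, and the fullest held 18. The variance of the number per bin was 3.31 times the mean of 0.118, where independent placement at an even rate would give a ratio near 1. To compare with the far more abundant narrow peaks, the excess of this ratio over 1 was divided by the mean, a quantity that random thinning leaves unchanged. It was 19.5 for wide domains and 0.909 for narrow peaks free of other marks, which were not matched by score. In bins of 5 Mb the values were 7.45 and 0.501.

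At a linking distance of 50 kb there were 323 clusters, of which 285 were lone domains, 20 were pairs and 18 had 3 domains or more. The 5 clusters with most members held 37 domains (9.11%). The largest, on chromosome 3 from 458370384 to 458623110, held 11 domains in 252.7 kb, and H3K9me3 peaks covered 62.4% of that span. Its domains had scores from 88.4 to 393 and lay from 44.5 to 200.1 kb from the nearest MOA peak. A second cluster on chromosome 3, from 481354760 to 481544251, held 8 domains, with H3K9me3 peaks over 68.2% of its 189.5 kb. On chromosome 1 a cluster from 557588895 to 557700897 held 8 domains in 112.0 kb, from 192.3 to 295.4 kb from an MOA peak. Clusters of 5 domains lay on chromosome 2 from 102806766 to 102891929 and on chromosome 3 from 461994631 to 462046169, and the latter was the most filled, with H3K9me3 peaks over 88.6% of its 51.5 kb. Thus 3 of the 5 clusters were on chromosome 3.

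Some neighbouring domains were separated by very short gaps. In 15 domains the gap to the next was under 100 bases, the smallest being 10 bases, and in 36 it was at most 1 kb. With narrow peaks included, the next H3K9me3 peak was within 1 kb of 142 domains (35.0%, 30.3 to 39.8%), against 19.3% of narrow peaks free of other marks. Whether such neighbours are separate domains or 1 domain called in pieces was not tested, and joining of H3K9me3 peaks over gaps of up to 1000 bases raised the number of wide domains free of other marks to 1673. Of the joined domains, which are more numerous, 26.96% had another within 50 kb, and the excess over 1 of the variance ratio, divided by the mean, was 3.99.

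Domains in clusters were wider than lone domains, but did not score higher. Of the 121 domains with another within 50 kb, 43 (35.5%, 27.05 to 44.8%) were 10000 bases or wider, against 28 of the 285 lone domains (9.82%, 6.63 to 13.9%). Their median score was 309, against 348 for lone domains. A score of 500 or more was reached by 24 of those in clusters (19.8%, 13.1 to 28.1%) and by 99 of the lone domains (34.7%, 29.2 to 40.6%).

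The surroundings of wide domains were rich in H3K9me3. In the 50 kb on either side of a domain, other H3K9me3 peaks covered 24.3% of the bases, against 11.3% around narrow peaks free of other marks and 5.27% of chromosomes 1 to 8 as a whole. Around the 366 wide peaks that shared a base with another mark it was 21.8%, so such flanks were not limited to domains free of other marks. The median number of other H3K9me3 peaks within 50 kb was 7 (6 to 7) for wide domains and 4 (4 to 4) for narrow peaks, and 11 wide domains (2.71%) had none, against 8.10% of narrow peaks. The difference was not carried by a single chromosome, since coverage was higher around wide domains on 8 of 8 chromosomes, from 16.8 to 29.1% against 9.57 to 12.6% around narrow peaks. It was 43.7% around domains in clusters, where the flanks hold the other domains, and 16.1% around lone domains.

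Coverage of the flanks rose with the width of the peak through the whole range. Among peaks free of other marks it was 9.66% around those under 1500 bases wide, 12.2% from 2000 to 2999 bases, 15.6% from 5000 to 5999, 19.8% from 6000 to 7999, 30.3% from 8000 to 11999 and 43.4% around the 45 of 12000 bases or more. There was no step at the threshold of 6000 bases. Coverage did not rise with the score in the same way. Around narrow peaks it was 11.5% at scores from 50 to 100 and 9.47% at 500 or more, and around wide domains it was 41.9% for the 13 with scores under 100 and 18.0% for the 123 with scores of 500 or more. It was higher around wide domains than around narrow peaks in 5 of 5 score ranges.

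**Figure D3:**
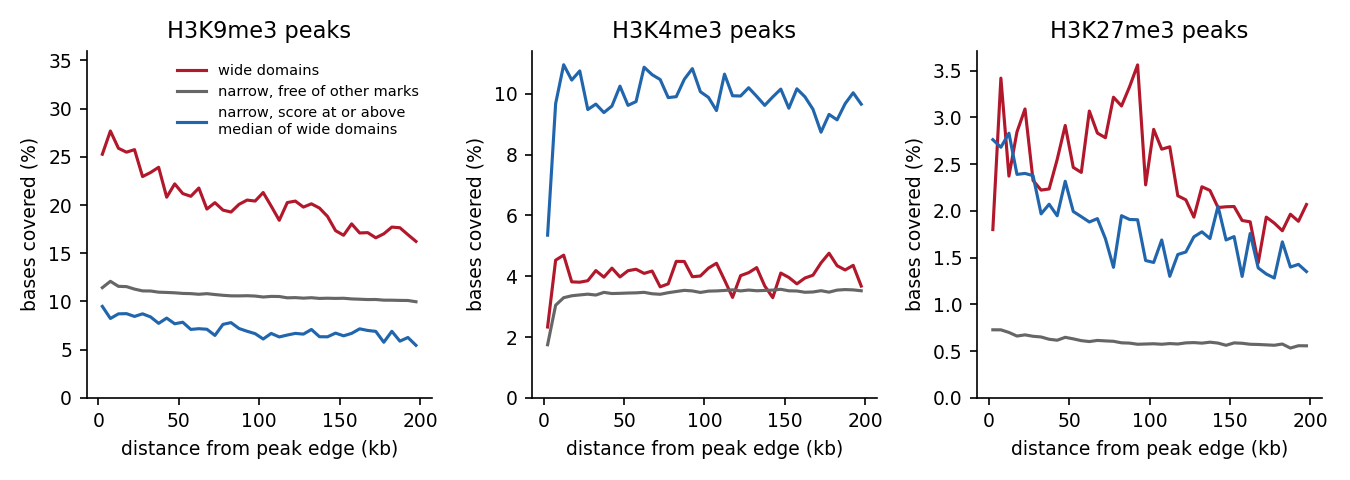
Share of bases covered by H3K9me3 (left), H3K4me3 (middle) and H3K27me3 peaks (right) in steps of 5 kb up to 200 kb from the edges of wide H3K9me3 domains (red), of narrow H3K9me3 peaks free of other marks (grey), and of the 878 such narrow peaks with a score at or above the median of wide domains (blue). H3K9me3 around wide domains starts at 25.3% in the first 5 kb and stays above both narrow sets out to 200 kb, whereas H3K4me3 is densest around narrow peaks of high score.

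Distance to the MOAs was taken from the edge of each H3K9me3 peak to the nearest peak of H3K4me3 or H3K9Ac. The median was 83.8 kb (55.0 to 117 kb) for wide domains and 138 kb (134 to 142 kb) for narrow peaks free of other marks. An MOA peak lay within 10 kb of 95 wide domains (23.4%, 19.4 to 27.8%) and of 17.7% of narrow peaks (17.4 to 18.0%). Within 1 kb there was an MOA peak for 14 wide domains (3.45%) and for 1.91% of narrow peaks. At the other end, 56.2% of wide domains had none within 50 kb (51.2 to 61.0%) and 42 (10.3%) had none within 1 Mb. For narrow peaks these shares were 60.8%, inside the interval of the wide domains, and 13.0%. Without regard to score, wide domains as deposited were thus nearer to MOA peaks than narrow peaks were, with a ratio of medians of 0.609. With H3K9me3 peaks joined over gaps of up to 1000 bases the ratio was 2.38, so the order turned. The order for deposited peaks did not hold on every chromosome. The median was shorter for wide domains on 4 of 8 chromosomes (2, 3, 4 and 8) and longer on 1, 5, 6 and 7, where on chromosome 7 it was 992 kb against 387 kb and none of the 17 wide domains lay within 10 kb of an MOA peak. On chromosome 8 the medians were 22.6 kb and 68.5 kb.

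The comparison also turned around when peaks of like score were set side by side. Narrow peaks were nearer to MOA peaks the higher they scored, with medians of 207 kb at scores from 50 to 100, 48.0 kb from 100 to 200, 12.7 kb from 200 to 300, 9.61 kb from 300 to 500 and 8.26 kb at 500 or more. Wide domains in the same ranges had medians of 248, 173, 404, 95.04 and 10.1 kb. The median was longer for wide domains in 5 of 5 ranges, and in 3 of them, from 100 to 500, the intervals did not overlap. From 200 to 300 the interval was 240 to 621 kb for the 114 wide domains and 11.8 to 13.6 kb for the 2415 narrow peaks. At 500 or more, where 123 wide domains and 178 narrow peaks were compared, the intervals overlapped (7.44 to 12.9 kb and 7.24 to 9.74 kb). Against the 878 narrow peaks with a score of at least the median of wide domains, the median distance of wide domains was 9.05 times as long. That comparison takes in wide domains of every score, so it is not matched by score.

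**Figure D4:**
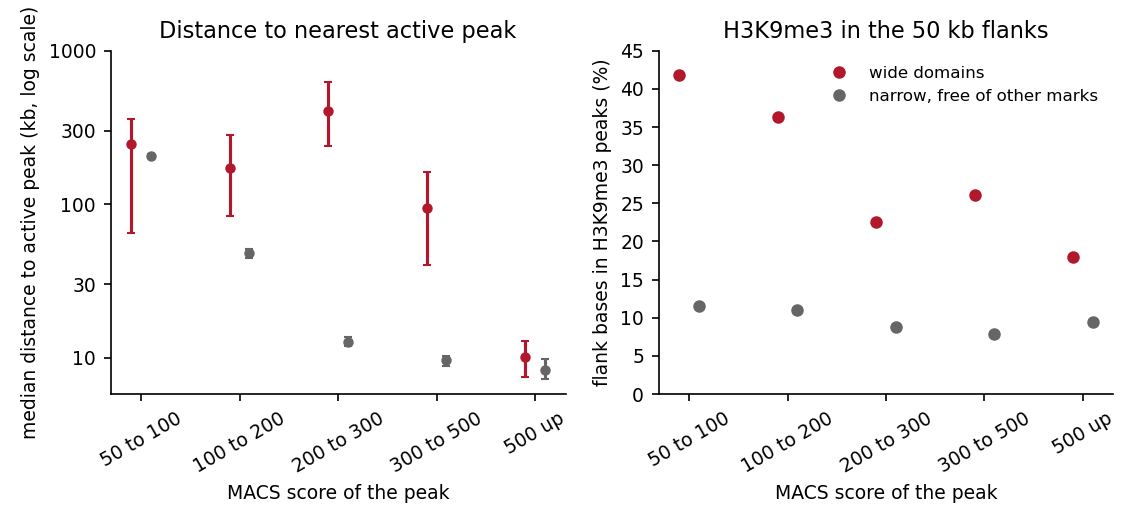
Median distance in kb to the nearest H3K4me3 or H3K9Ac peak (left, log scale, with 95% order-statistic intervals) and share of the bases of the 50 kb flanks covered by other H3K9me3 peaks (right, without error), by range of MACS score, for wide H3K9me3 domains (red) and narrow peaks free of other marks (grey). From 100 to 500 the wide domains lie farther from active peaks with no overlap of the intervals, at 500 or more both are near 10 kb, and the flanks of wide domains hold more H3K9me3 in every range.

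Within the wide domains, the score separated those near MOA peaks from those far away. Of the 123 domains with a score of 500 or more, 49.6% (40.5 to 58.8%) lay within 10 kb of an MOA peak and the median distance was 10.1 kb. Among the 174 with a score under 300 the median was 282 kb. Of those with scores of 500 or more, 24 (19.5%, 12.9 to 27.6%) had another wide domain within 50 kb, against 58 of those under 300 (33.3%, 26.4 to 40.9%), and these intervals overlap. Domains in clusters lay farther from MOA peaks than lone domains, at a median of 175 kb (121 to 238 kb) against 37.6 kb (22.0 to 71.2 kb). An MOA peak was within 10 kb of 13 of the 121 domains in clusters (10.7%, 5.85 to 17.7%) and of 82 of the 285 lone domains (28.8%, 23.6 to 34.4%). A domain in a cluster has a neighbour within 50 kb that was itself chosen to share no base with an MOA peak. Part of its surroundings is thus free of such peaks by the rule, and how much this adds to the difference was not tested. Over all wide domains the median distance rose with width, whereas by score it was longest from 200 to 300 and fell above that. By width it was 56.5 kb (27.3 to 94.4 kb) from 6000 to 7999 bases, 90.4 kb (46.1 to 162 kb) from 8000 to 11999 and 206.0 kb (137 to 314 kb) at 12000 or more. Only the interval of the last lay apart from that of the first. Of the 45 domains of 12000 bases or wider, 2.22% lay within 10 kb of an MOA peak (0.0562 to 11.8%), against 27.8% of the 284 from 6000 to 7999 bases (22.7 to 33.4%).

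**Figure D5:**
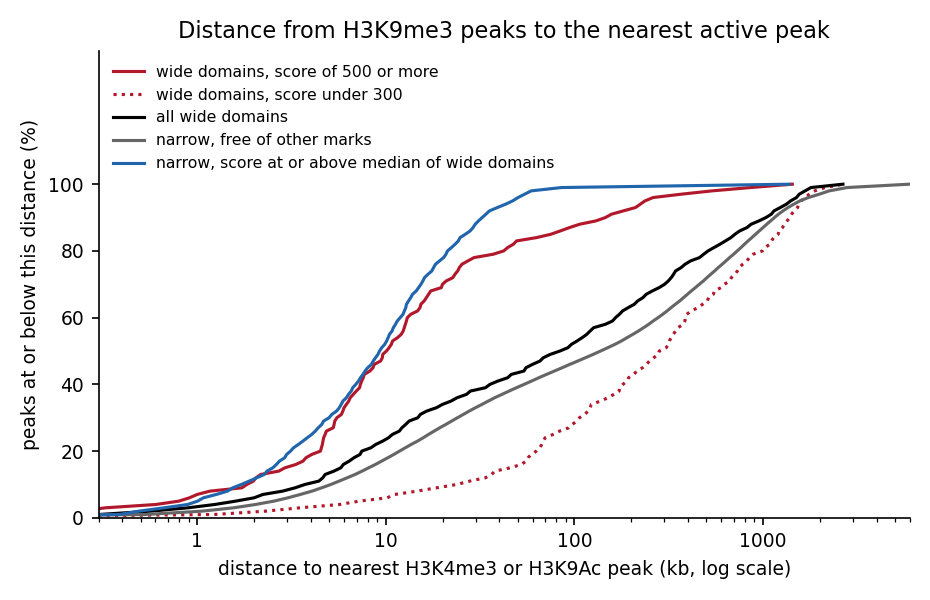
Cumulative share of peaks (y axis, %) by distance to the nearest H3K4me3 or H3K9Ac peak (x axis, kb, log scale) for all 406 wide domains (black), those with a score of 500 or more (red line) or under 300 (red dots), narrow H3K9me3 peaks free of other marks (grey) and those of them with a score at or above the median of wide domains (blue). The median is 83.8 kb over all wide domains, but 10.1 kb for scores of 500 or more and 282 kb for scores under 300.

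The contrast was visible between neighbouring stretches of chromosome 3. Windows of 10 Mb were counted from the start of each chromosome. The window from 480 to 490 Mb held the most wide domains of any, 24 in 6 clusters, with a median score of 318 and a median of 158 kb to the nearest MOA peak. The window from 500 to 510 Mb was the second, with 20 domains in 17 clusters, a median score of 680 and a median of 8.07 kb. On chromosome 4 the window from 400 to 410 Mb held 14 domains in 13 clusters, with 596 and 8.69 kb. On chromosome 1 the window from 550 to 560 Mb held 17 domains in 5 clusters, with 400 and 286 kb. Not every window with many domains was like these. From 430 to 440 Mb on chromosome 3 there were 6 domains in 5 clusters, with a median score of 191 and a median of 177 kb.

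The kind of MOA peak nearest to a wide domain was much the same as for all narrow peaks free of other marks, but not as for those of high score. The nearest region of activation carried both H3K4me3 and H3K9Ac for 43.8% of wide domains (39.0 to 48.8%), H3K4me3 alone for 53.0% (48.0 to 57.9%) and H3K9Ac alone for 3.202% (1.72 to 5.41%). For narrow peaks free of other marks these shares were 41.0%, 54.0% and 4.95%, each inside the interval of the wide domains. For the 878 narrow peaks with a score at or above the median of wide domains they were 60.7% (57.4 to 64.0%), 36.6% (33.4 to 39.8%) and 2.73%. Of all 78739 regions of activation on chromosomes 1 to 8, 54.3% carried both. Taken by mark, the median distance of wide domains was 83.9 kb to H3K4me3 and 172 kb to H3K9Ac. For narrow peaks free of other marks it was 142 kb and 242 kb.

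Gaps of at least 300 kb without any MOA peak made up 33.1% of the length of chromosomes 1 to 8, in 1297 stretches. They held 217 of the wide domains (53.4%, 48.5 to 58.4%) and 59.4% (59.1 to 59.8%) of the narrow peaks free of other marks, but 1.94% (1.13 to 3.08%) of the 878 narrow peaks with a score at or above the median of wide domains. Of domains in clusters 74.4% (65.6 to 81.9%) lay in them, and of lone domains 44.6% (38.7 to 50.5%). The neighbours in a cluster are free of MOA peaks by the rule, which bears on this comparison too. In gaps of at least 1000 kb, 18.3% of the length, were 29.6% of wide domains (25.2 to 34.3%) and 44.7% of narrow peaks. The share was 0.683% for the 878 narrow peaks of high score. These 878 were set against wide domains of every score, so the shares are not matched by score.

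H3K27me3, the other MOR, was nearer to wide domains than to narrow peaks when score was not taken into account. The median distance from a wide domain to the nearest H3K27me3 peak was 54.1 kb (44.3 to 70.3 kb), against 219 kb (216 to 222 kb) for narrow peaks free of other marks. An H3K27me3 peak lay within 50 kb of 197 wide domains (48.5%, 43.6 to 53.5%) and of 22.0% of narrow peaks. From 5 to 10 kb outside the edge, H3K27me3 peaks covered 3.42% of the bases around wide domains and 0.727% around narrow peaks, and they covered 0.696% of chromosomes 1 to 8 as a whole. In the 5 kb steps on either side it was 1.80% and 2.37% around wide domains. Around the 878 narrow peaks with a score at or above the median of wide domains, H3K27me3 covered 2.68% from 5 to 10 kb. Their median distance, 33.9 kb (28.1 to 38.6 kb), was shorter than that of wide domains. Against all narrow peaks free of other marks, the median was shorter for wide domains on 6 of 8 chromosomes, with chromosomes 6 and 7 as the exceptions. In like score ranges it was shorter in 2 of 5, those below 200, where the medians were 32.9 kb against 257 kb and 57.7 kb against 160 kb. From 200 to 300 it was longer, at 229 kb (150 to 334 kb) against 60.5 kb (55.0 to 66.7 kb), and above 300 the intervals overlapped. As the domains were chosen to share no base with H3K27me3, these distances describe only their surroundings.

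Wide domains were found near the ends of some chromosomes. The terminal 10 Mb of each end make up 4.67% of the length and held 30 of the wide domains (7.39%, 5.04 to 10.4%), against 4.03% of narrow peaks free of other marks (3.89 to 4.17%). With each cluster counted once the share was 8.05% (5.33 to 11.6%), but with H3K9me3 peaks joined over gaps of up to 1000 bases it was 3.53%, below the share of the length. Of the 16 ends, 8 held a wide domain, and the most were 8 at the far end of chromosome 3, 7 at that of chromosome 5 and 6 at that of chromosome 1.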

How the data were processed

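ChIP-seq libraries of 4 antibodies and 1 input from 1 male were assigned to groups from the sample labels. Reads were quality filtered by the authors and aligned to MonDom5 by Bowtie (seed of 28 bases, at most 2 mismatches, best alignment), and MACS was run on each antibody with the input as control. The submitters' processing notes name CASAVA 1.7, Bowtie 1.1.2 and MACS 1.0.1, and whether these last 2 are versions of the tools or of their Galaxy wrappers is not given in the sources used here. The deposited lists give 1 score per peak, as minus 10 times the log10 of its p-value, and the H3K9me3 list reaches down to a score of 30. The input library was not analysed here.

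Python 3.11.15 was used with numpy 2.4.6, pandas 2.3.3 and scipy 1.17.1. Starts were converted to counting from 1, and 2 H3K9me3 starts below 0 were set to 0. Overlap required at least 1 shared base, with every deposited peak of the other marks used. Distances were measured between edges. The interval code was tested on simulated peaks and checked against bedtools 2.31.1. The lists hold no read counts per peak, and intervals cover counting error only. Regions named are the 10 widest, the 5 with the highest score, the widest of each chromosome and the 5 clusters with most members. Members and comparisons were chosen with earlier results of these data known. Alternatives covered thresholds, joining of peaks, linking and window sizes, and leaving out each chromosome.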

Additional observations from a re-analysis of the deposited data

Results flagged for a closer look

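Sequence not placed on a chromosome lies outside the rule and was set apart because wide H3K9me3 peaks were frequent there. Of its 5496 H3K9me3 peaks with a score of at least 50, 1498 (27.3%, 26.1 to 28.5%) were at least 6000 bases wide, against 0.943% (0.878 to 1.01%) on chromosomes 1 to 8. Only 253 of these (16.9%) were free of other marks, against 52.6% of wide peaks on the chromosomes. H3K27me3 peaks shared a base with 72.4% of them, H3K4me3 peaks with 59.3% and H3K9Ac peaks with 0.401%.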

How the results depend on the processing

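Of 109 alternative values for 11 results, 64 changed little, 42 moved and 3 reversed. A share counted as moved outside its 95% interval and any other value beyond a factor of 1.5, and a ratio of wide domains to narrow peaks as reversed when it crossed 1. No paired analysis was possible because every antibody has a single library. The ratio of median distances to the nearest MOA peak, wide to narrow, was 0.609 and reversed to 2.50 at a score of at least 100, to 2.38 with H3K9me3 peaks joined over gaps of up to 1000 bases, and to 9.05 against narrow peaks at or above the median score of wide domains. It moved to 0.916 at a width of at least 8000 bases, 0.323 with other marks only at a score of at least 100, 0.320 without the H3K27me3 criterion and 0.273 without domains in clusters, an alternative chosen after seeing the data. A higher score threshold leaves fewer narrow peaks of low score by construction, and for the other settings the cause was not tested.

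The number of wide domains moved to 939 at 5000 bases, 122 at 8000 bases, 1673 with joined peaks, 614 with other marks only at a score of at least 100 and 610 without the H3K27me3 criterion. In the same settings except the last, the share with another domain within 50 kb was 20.7%, 49.2%, 26.96% and 35.8%, of which the joined value stayed inside the interval. It was 17.2% at 10 kb, 53.0% at 500 kb and 23.5% without chromosome 3. The overdispersion moved to 6.71 at 5000 bases, 74.2 at 8000 bases, 3.99 with joined peaks and 7.45 in bins of 5 Mb. The ratio of the densest to the sparsest chromosome was 3.68, and 2.18, 8.11 and 1.68 in the first 3 of these settings and 2.21 without chromosome 3.

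The ratio of H3K9me3 coverage of the flanks was 2.16, moved to 3.32 at a score of at least 100 and 1.43 without domains in clusters, and stayed above 1 in each alternative run. The share with no MOA peak within 50 kb moved to 68.0% at 8000 bases, 70.8% with joined peaks, 48.7% with other marks only at a score of at least 100, 46.1% without the H3K27me3 criterion and 66.7% with only H3K4me3 peaks that share a base with H3K9Ac. The terminal share moved to 12.3% at 8000 bases and 3.53% with joined peaks, below the 4.67% of the length, and was 4.68% and 12.3% for windows of 5 and 20 Mb. The ratio of distances to H3K27me3 was 0.247 and moved to 0.416 at a score of at least 100, 0.462 at 5000 bases and 0.856 with joined peaks. The alternative against narrow peaks at or above the median score of wide domains was not run for it. Those narrow peaks had the shorter median, 33.9 kb against 54.1 kb. The lists hold no read counts, so the limit that depth sets on these values was not measured. Also added after seeing the data were gaps of 100 and 1000 kb between MOA peaks (66.3% and 29.6% of wide domains inside, against 53.4%) and 3 equal groups by score (4.41%, 17.2% and 48.5% within 10 kb of an MOA peak, from lowest to highest, against 23.4%).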
